A study of Microtus ochrogaster with 2 samples.

Results

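Cytoplasmic ribosomal protein genes were examined for H3K4me1 in male prairie voles, Microtus ochrogaster, 30 to 40 days of age. The tissue was retrosplenial cortex, which lies along the midline behind the cingulate cortex and serves spatial memory. Members were protein-coding genes whose symbol in the MicOch1.0 RefSeq table begins with Rpl, Rps or Rplp and a digit and whose position is placed. The symbol rule took 88 genes, of which 67 were placed, among 13975 placed protein-coding genes used here. Of the 67, 57 encode ribosomal proteins or their close paralogues, 23 of the small and 34 of the large subunit, on 20 chromosomes and linkage groups. The other 10 are ribosomal S6 kinases and a binding protein, which only share the symbol, and they are described apart. Below, members are the 57 ribosomal protein genes alone. A further 20 ribosomal protein genes of the table have no placed position and were not analysed here.

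The data were 1 peak list, called from 1 ChIP library against 1 input library of the same tissue. The antibody recognised histone H3 with 1 methyl group on lysine 4, and the input was made without antibody. The design text names 8 males and no treatment, and does not say how many animals each library holds. Filtered fragments numbered 37430265 for ChIP and 47554684 for input. There was no replicate check, so intervals cover counting error only and say nothing about the spread between animals.

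The ribosome reads messenger RNA in its small subunit and joins amino acids in its large subunit. Its proteins are needed in near-equal amounts and come from short, strongly transcribed genes, many of which have left processed copies in rodent genomes. H3K4me1 marks enhancers and, at active promoters, the stretches beside the start, while the start itself carries more highly methylated lysine 4. Neurons also translate messages in their dendrites, near synapses.

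A locus was taken as the gene with 5 kb on each side, and a peak belonged to it when they shared at least 1 base. A peak in the locus was found at 32 of the 57 ribosomal protein genes, or 56.1% (95% Wilson interval 43.3 to 68.2%). Over all placed genes the share was 46%, but those genes are longer, with a median of 18.0 kb against 3.31 kb. Among the 5004 genes whose locus measured 10 to 20 kb, the range that holds 56 of the 57 members, the share was 24.3%. A peak overlapped the gene body itself at 22 members, or 38.6% (27.1 to 51.6%), against 13.3% of the 5004 genes and 38.1% of all placed genes. The ribosomal protein genes thus stood above genes of like locus length on both counts, with intervals that did not overlap. How strongly any of these genes is transcribed was not measured, and the 5004 genes were not selected for activity.

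The 57 loci held 40 peaks, or 0.510 per 10 kb (exact Poisson interval 0.364 to 0.694), against 0.249 per 10 kb in loci of 10 to 20 kb. Most members with a peak had a single one, 25 of 32, while 6 had 2 peaks and Rpl7a had 3. The median member had 2.29% of its locus under peaks (95% interval of the median 0 to 4.67%), where the median was 0 both over all placed genes and over the 5004 genes of like length. The members' median was also 0 in 4 of 10 other settings, with 2.5 kb flanks, with either set of stronger peaks and without peaks inside another gene. Coverage exceeded 4.55% of the locus, the 90th percentile of those 5004 genes, at 21 members, or 36.8%, against 10% of the 5004. Peaks were found at members on 18 of the 20 sequences. The exceptions were chromosome 21 and the X, each with 1 member.

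**Figure D1:**
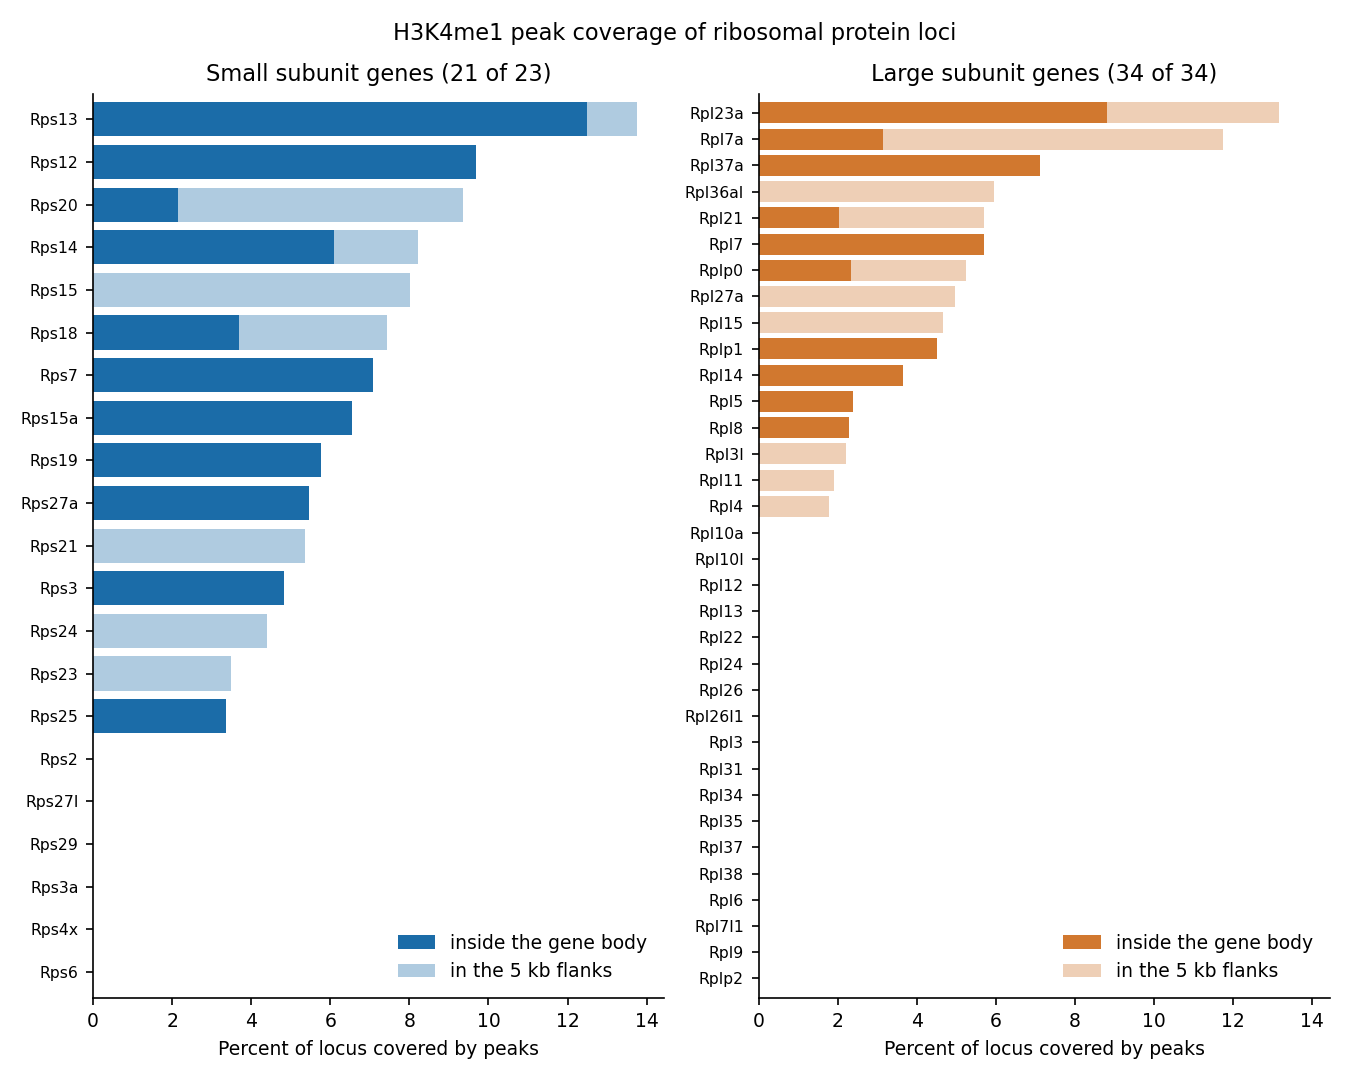
Percent of each ribosomal protein locus (the gene and 5 kb at either side) under H3K4me1 peaks, for 21 of the 23 small and all 34 large subunit genes, with bases inside the gene in dark and bases in the flanks in light colour. Coverage runs from 0 at 24 of the plotted genes to 13.8% at Rps13 and 13.2% at Rpl23a.

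The main comparison set the small against the large subunit. A peak lay in the locus of 16 of 23 small subunit genes, or 69.6% (49.1 to 84.4%), and of 16 of 34 large subunit genes, or 47.1% (31.5 to 63.3%). In the gene body the counts were 12 of 23, or 52.2% (33.0 to 70.8%), and 10 of 34, or 29.4% (16.8 to 46.2%). The median small subunit locus was 4.82% covered (95% interval 0 to 7.08%) and the median large subunit locus 0% (0 to 3.65%). The intervals of the subunits overlapped for all of these values, and the difference itself was not tested. The order turned when only the 25% of peaks with the highest fold were kept. A peak then remained at 2 of 23 small subunit genes, or 8.70% (2.42 to 26.8%). In the large subunit it remained at 4 of 34 genes, or 11.8% (4.67 to 26.6%). These intervals overlapped too, and the turn rests on few genes. Median gene length was 3.09 kb in the small and 3.36 kb in the large subunit.

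**Figure D2:**
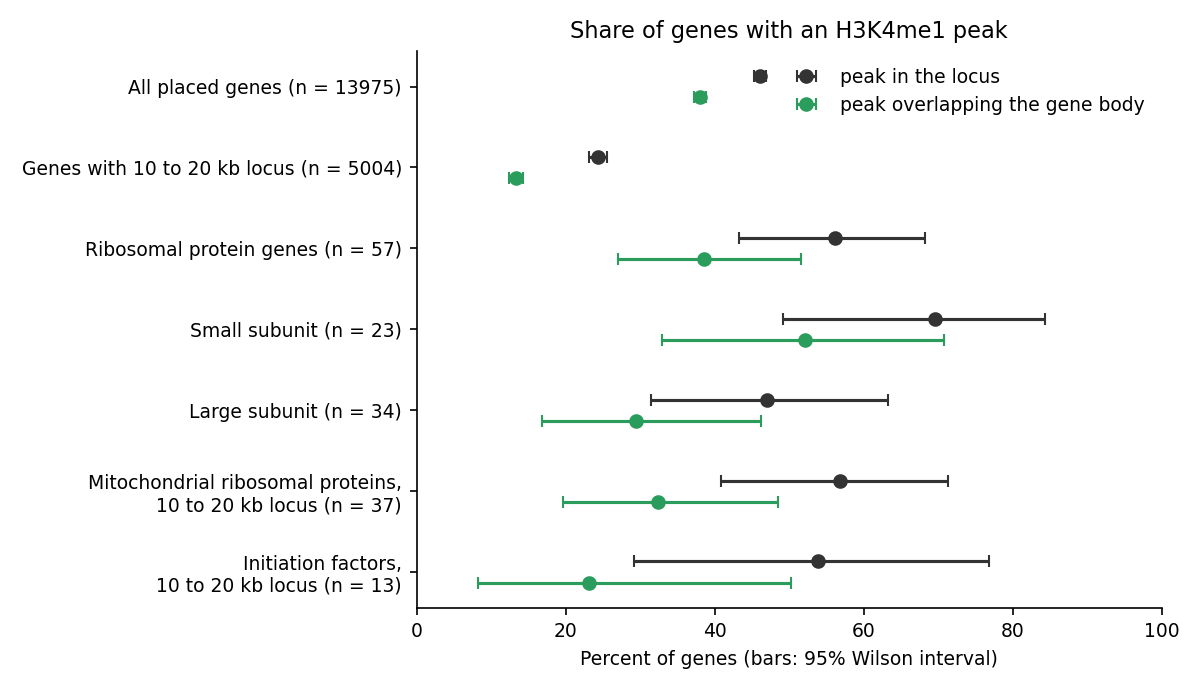
Percent of genes with a peak in the locus (dark) and with a peak overlapping the gene body (green), with 95% Wilson intervals over genes. Ribosomal protein genes stand at 56.1% and 38.6%, genes with a locus of 10 to 20 kb at 24.3% and 13.3%, and the intervals of small and large subunit overlap.

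Peaks were next divided by place. Of the 40 peaks, 23 overlapped the member's gene body and 17 lay in a flank, so that 57.5% (42.2 to 71.5%) were body peaks. In genes of like locus length 43.8% were body peaks, a share inside that interval. Over all placed genes, which are longer, 87.1% were. Bodies made up the smaller part of most member loci. Peaks covered 7.03% of the bases of ribosomal protein gene bodies and 1.73% of their flanks. In genes of like locus length these values were 1.98% and 1.02%. Small subunit bodies were covered to 12.8% and large subunit bodies to 3.95%, while their flanks were close, at 1.89% and 1.62%. Without Rps13, whose peak covers the most body bases, small subunit bodies were covered to 11.1%, and without Rpl23a large subunit bodies to 3.21%. Without the 6 paralogues described below, bodies were covered to 13.4% in the small and 4.86% in the large subunit, and flanks to 1.97% and 1.49%. The subunits thus stood further apart inside the genes than around them. These values pool bases over genes and have no interval, and the difference was not tested.

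None of the 23 body peaks also lay in the body of another placed protein-coding gene. Of the 17 flank peaks, 8 lay inside a neighbouring gene, and no peak was shared by 2 ribosomal protein loci. Without the peaks inside a neighbour, a setting chosen after the values were seen, 47.4% of members kept a peak, with 60.9% of small and 38.2% of large subunit genes. The matching share of genes of like locus length was not computed. Their 24.3% still counts peaks inside neighbours, so it cannot be set beside these values. Which gene a flank peak serves cannot be read from its position.

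Within the genes, peaks sat away from the ends. In 21 of 23 cases the body peak lay wholly inside the gene, the exceptions being at Rps13 and Rps20. The summit, where most ChIP fragments overlap, lay inside the gene for 22 of them, at a median of 1132 bp from the nearest gene end (quartiles 934 and 1320 bp). It lay 1000 to 1500 bp inside at 11 of the 23 and within 500 bp of an end at 2, Rpl8 and Rps27a. The short gene bodies limit how far inside a summit can lie. These positions were not computed for genes of like locus length, so they cannot be called particular to the members. Flank summits were spread from 349 to 4652 bp outside the gene, with a median of 2816 bp. Strand was not used here, so an end may be the start or the stop of transcription.

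Base by base, small subunit coverage was 2.32% in the outermost 10% of the gene on either side and rose to 23.6% between 30 and 40% of the gene length from the nearest end. It fell back to 11.1% in the middle bin, from 40 to 50%. In large subunit genes coverage was 0.444% in the outermost bin, 3.60% at 20 to 30%, 6.79% at 30 to 40% and 5.71% in the middle bin. Both subunits were thus lowest in the outermost bin and highest at 30 to 40%. Genes of like locus length stayed between 1.11% and 2.55% in all 5 body bins. They too were lowest in the outermost bin, but highest at 10 to 20% of the gene length. The small subunit values rest on 13 peaks, and a single wide peak such as that of Rps13 weighs heavily in them.

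**Figure D3:**
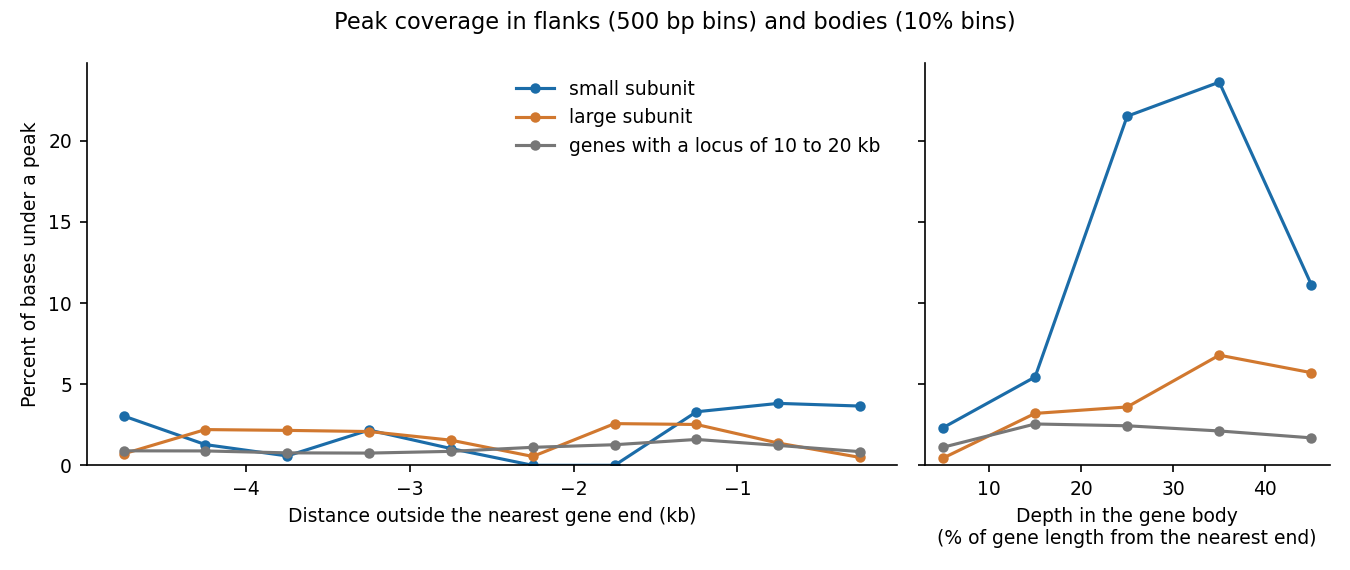
Percent of bases under a peak in 500 bp bins of the flanks (left, distance outside the nearest gene end) and in bins of 10% of gene length inside the body (right, from the nearest end towards the middle), for small subunit, large subunit and all genes with a locus of 10 to 20 kb. Small subunit bodies reach 23.6% at 30 to 40% of gene length, large subunit bodies 6.79%, and the flanks of all groups stay below 4%.

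The head of the small subunit is the part that holds the messenger and transfer RNAs with the body. Its genes carried a peak at 9 of 11 loci (95% Wilson interval 52.3 to 94.9%) and in 8 of 11 gene bodies (43.4 to 90.3%). In genes of like locus length the shares were 24.3% and 13.3%. Of the head genes, Rps12 had the most, with 9.67% of its locus and 50.9% of its 2.35 kb body under a single peak on linkage group 4 (3677561 to 3678754). That peak was 1194 bp wide, with 24 fragments at the summit and 2.48-fold enrichment over the caller's background. Fold here and below is the authors' own value for each peak.

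Rps20, whose protein binds RNA in the head, had 1 peak of 1038 bp across a gene end, with 27 fragments and 2.79-fold enrichment, covering 21.8% of the body. Rps18, a protein at the contact between the subunits, had 1 peak in its body (2.79-fold) and 1 in the flank (2.93-fold) that lay inside the neighbouring gene Vps52. Together they covered 7.44% of the locus. Rps19, the gene most often mutated in Diamond-Blackfan anaemia in humans, had an 877 bp peak inside the gene with 20 fragments and 2.90-fold enrichment.

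Rps27a encodes a ribosomal protein fused to ubiquitin, and its 629 bp peak covered 42.0% of the 1.50 kb gene with 30 fragments and 2.97-fold enrichment. Rps3, which also has a part in DNA repair, had a 702 bp peak of 3.57-fold enrichment. Rps25, which viral and some cellular messages need for internal initiation, had 31 fragments at its summit and 3.09-fold enrichment. The head genes described here differed more in the width of their peaks than in fold.

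Rps15, also of the head, had no peak in its 0.876 kb body. Its flank held an 871 bp peak (2.90-fold) inside Apc2, a neighbouring gene related to the tumour suppressor Apc. Rps29 had no peak in the locus, and the nearest lay 21.8 kb from the gene.

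The body and platform genes of the small subunit carried a peak at 7 of 12 loci (32.0 to 80.7%) and in 4 of 12 gene bodies (13.8 to 60.9%). These intervals overlapped those of the head genes, and the difference was not tested. Rps13 had the widest peak of all members and the highest coverage. Its peak on chromosome 8 (8098033 to 8099733) measured 1701 bp, had 31 fragments at the summit and 2.75-fold enrichment, and covered 65.3% of the gene. With 13.8% of its locus covered, Rps13 was exceeded by 43 of the 5004 genes of like locus length, or 0.859%.

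Rps7 had the strongest peak of all members, on linkage group 3 (24825504 to 24826522), with 29 fragments over a background of 6.35 and 4.08-fold enrichment. A lower fold was recorded at 97.8% of placed peaks, and Rps7 was the only member to reach 4-fold. Rps14, which is lost with one copy in the human 5q deletion syndrome, had a 907 bp body peak (2.77-fold) and a flank peak with its summit 4.65 kb outside the gene (2.59-fold). Rps15a had both of its peaks inside the gene, 313 and 701 bp wide, with 18 and 26 fragments, and was the only member with more than 1 body peak.

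Rps21, Rps23 and Rps24 had flank peaks alone. The Rps21 peak (2.82-fold) lay in the neighbouring gene Cables2, 0.319 kb from Rps21. The Rps23 peak had 17 fragments, the fewest among the 40, and 2.49-fold enrichment, beside a gene whose protein lines the decoding centre. The Rps24 peak lay 4.22 kb from its gene with 28 fragments and 2.78-fold enrichment. No peak was found at Rps2, Rps3a, Rps27l, Rps4x or Rps6, the protein phosphorylated by the S6 kinases. For Rps6 the nearest peak was 99.6 kb away, the farthest of any member, and for the X-linked Rps4x it was 70.6 kb away, on a chromosome where 3.33% of genes of like locus length had a peak.

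**Figure D4:**
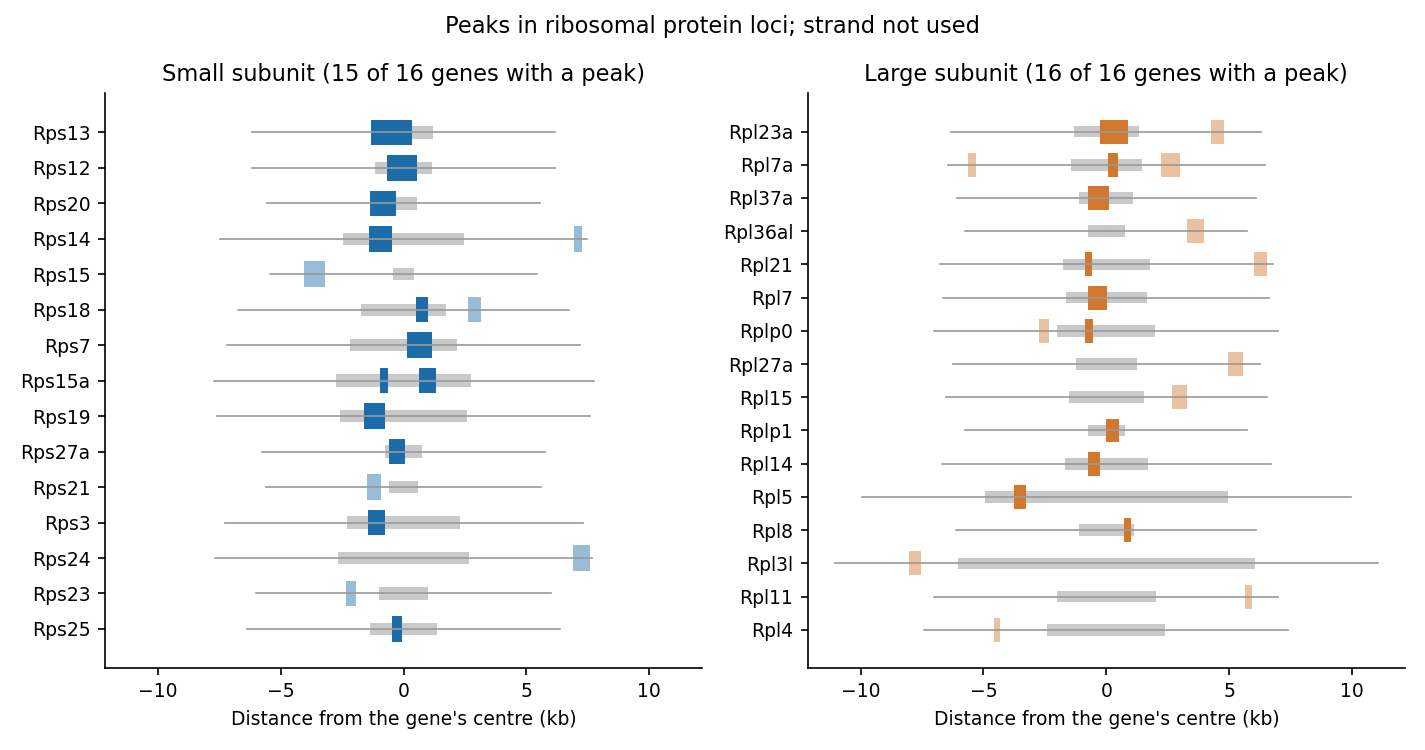
Positions of peaks in 15 of the 16 small and all 16 large subunit loci that hold one, in kb from the centre of each gene, with genes in order of coverage. Grey bars are gene bodies, thin lines the loci, dark blocks peaks that overlap the body and light blocks flank peaks. Counting also the small subunit locus that is not drawn, the small subunit has 13 body and 6 flank peaks. The large subunit has 10 body and 11 flank peaks. The Wilson intervals of the body share of peaks overlap, at 46.0 to 84.6% in the small and 28.3 to 67.6% in the large subunit. Of the loci with a peak, 12 of 16 small and 10 of 16 large subunit loci hold a body peak. These differences were not tested.

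In the large subunit the stalk, which calls translation factors to the ribosome, was divided. Rplp0, its base, had a body peak (26 fragments, 3.47-fold) and a weaker flank peak 349 bp by summit from the gene end (23 fragments, 2.27-fold). Rplp1, a stalk protein, had a peak over 34.9% of its 1.48 kb body with 28 fragments and 3.51-fold enrichment. Its partner Rplp2 and the stalk-base protein Rpl12 had no peak, and the nearest were 17.8 and 60.5 kb away.

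Rpl5 and Rpl11 carry the 5S RNA into the large subunit, and both bind Mdm2 when ribosome assembly is disturbed. Rpl5 had a body peak on linkage group 1 (57256800 to 57257275) with the lowest fold of the 40, 2.06, over a background of 10.6 fragments. A lower fold was recorded at 1.37% of placed peaks. Rpl11 had no body peak, and a 266 bp flank peak with 24 fragments reached 3.46-fold. The background there stood at the list's lowest value, 6.23 fragments.

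Around the exit tunnel, 2 of 6 genes carried a peak (9.68 to 70.0%), an interval that holds the 24.3% of genes of like locus length. Rpl23a, a docking site of the signal recognition particle, had a body peak of 1114 bp (chromosome 7, 20923486 to 20924599; 2.85-fold) over 42.4% of the gene. A further peak in its flank had 29 fragments and 3.68-fold enrichment, the next highest fold after Rps7 among the members. With 13.2% covered, Rpl23a led the large subunit. Rpl4, which lines the tunnel, had only a flank peak (2.61-fold), inside the neighbouring gene Snapc5. Rpl26, Rpl31, Rpl35 and the paralogue Rpl26l1 had none.

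The other 22 large subunit genes carried a peak at 10 loci (26.9 to 65.3%) and in 6 bodies (13.2 to 48.2%). Rpl7a, which lies among the Surf genes, had 11.8% of its locus covered by 3 peaks, 1 in its own body (3.04-fold), 1 in Surf2 (2.95-fold) and 1 in Med22 (2.93-fold). Rpl37a had an 868 bp peak over 39.7% of its body with 25 fragments and 2.81-fold enrichment. Rpl7 had one of 758 bp over 23.1% of its body with 25 fragments and 2.75-fold. At Rpl7a the neighbours thus held most of the covered bases, whereas at Rpl37a and Rpl7 all of them lay in the gene.

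Rpl21 had a 277 bp body peak (3.16-fold) and a flank peak (2.90-fold). Rpl14 had 14.4% of its body covered (2.59-fold), and Rpl8, a protein near the peptidyl transferase centre, had 12.6% covered (2.90-fold). Rpl27a had a flank peak 3.69 kb away (2.85-fold), and Rpl15 one inside Nkiras1, 1.15 kb away (2.99-fold).

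No peak was found at Rpl3, Rpl6, Rpl9, Rpl10a, Rpl13, Rpl22, Rpl24, Rpl34, Rpl37 or Rpl38, the last known in mice for its part in the translation of Hox messages. Over all 25 members without a peak, the nearest one lay 5.50 to 99.6 kb from the gene, with a median of 21.8 kb. It was within 10 kb at 2 of them, Rpl35 and Rpl22, and beyond 50 kb at 6. Members with and without a peak were alike in length, with medians of 3.17 and 3.34 kb.

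The 6 paralogues named as "like" another ribosomal protein had no body peak. Rpl36al had a flank peak (26 fragments, 2.58-fold), and Rpl3l, a paralogue of Rpl3 made in striated muscle, had one inside Msrb1 (3.04-fold). Rpl10l, a testis paralogue of Rpl10, and Rpl7l1, Rpl26l1 and Rps27l had none. Among the other 51 members, 43.1% (30.5 to 56.7%) had a body peak. The upper limit of the interval for 0 of 6 is 39.0%, so this number of paralogues cannot place them below the rest.

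Peaks at ribosomal protein loci were of ordinary strength. Their median fold was 2.90 (range 2.06 to 4.08), against 2.85 over all 27022 placed peaks and 2.85 in loci of 10 to 20 kb. The median summit held 24 fragments, against 22, and no member peak exceeded 31. Median width was 534 bp, against 432 bp, with 629 bp in bodies and 504 bp in flanks, and 702 bp in small against 483 bp in large subunit bodies. A width of 1 kb or more was reached by 5 of 23 body peaks, or 21.7%, at Rps7, Rps12, Rps13, Rps20 and Rpl23a. In genes of like locus length 9.15% of body peaks were as wide. Over all 40 member peaks the share was 12.5%, against 8.22% of placed peaks.

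The caller's background, derived from the input, had a median of 7.64 fragments at member peaks and 6.69 at all placed peaks. It stood at its lowest value at 8 of the 40 and at 35.9% of placed peaks, and no member peak had a background above 10.6. The part of this background, and of reads that match several ribosomal protein copies, in the member values was not tested. Among the 25% of peaks with the highest fold, 6 of 57 members had a peak, or 10.5% (4.91 to 21.1%). The share of genes of like locus length, 8.57%, lay inside that interval. Among the 50% with the higher q rank, the shares were 40.4% (28.6 to 53.3%) of members and 15.2% of genes of like locus length. Members thus stood above those genes in the full list and in the higher q set. Among peaks of the highest fold, 6 members are too few to show how wide the gap was.

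**Figure D5:**
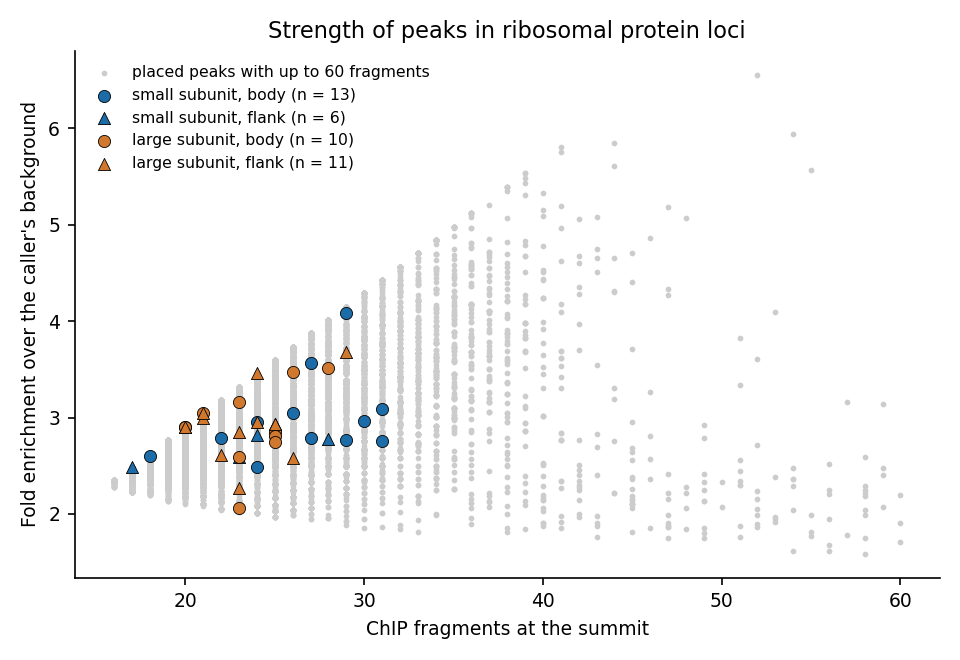
Fold enrichment over the caller's background against ChIP fragments at the summit, for the 40 peaks in ribosomal protein loci (circles in bodies, triangles in flanks) and, in grey, placed peaks with up to 60 fragments, which leaves out 260. Member peaks lie between 17 and 31 fragments and between 2.06-fold and 4.08-fold.

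Other genes of translation were counted beside them, from lists by symbol. Nuclear genes of the mitochondrial ribosome with a locus of 10 to 20 kb carried a peak at 21 of 37, or 56.8% (40.9 to 71.3%), and in the body at 12, or 32.4% (19.6 to 48.5%). These shares lay within the intervals of the cytoplasmic genes. Their bodies were covered to 3.23%, against 7.03% in the cytoplasmic set, but were longer, with a median of 5.70 kb against 3.31 kb. Over all 51 such genes 30 carried a peak, led by Mrps7 (13.5% of the locus), Mrpl12 (10.4%), Mrps6 (7.26%) and Mrps34 (6.87%).

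Genes with symbols of initiation factors, some of them regulators, carried a peak at 22 of 33, led by Eif4a2, a helicase subunit that unwinds messenger leaders (19.3%), and Eif4g2 (8.56%). Elongation and release factors carried one at 7 of 10. Eef1a1, which brings aminoacyl-tRNA to the ribosome, had 54.1% of its body covered, while its neuronal and muscle paralogue Eef1a2 had 5 peaks in the flanks and none in the body. Eef2, the translocation factor, had none. Ribosome biogenesis genes carried one at 6 of 8, led by Rrs1, with 2 flank peaks, and Bop1 (7.69%), and mTOR pathway genes at 6 of 10, led by Mlst8 (13.7%) and Rptor (3.14%). Over all placed genes the share was 46%. Among the members of these lists with a locus of 10 to 20 kb, a peak was found at 7 of 13 initiation factor genes (53.8%, 29.1 to 76.8%), 3 of 4 elongation and release factors, 2 of 2 biogenesis genes and 1 of 2 mTOR pathway genes, against 24.3% of all genes of that locus length.

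Of the 10 genes that share only the symbol, with a median length of 40.7 kb, 5 carried a peak (95% Wilson interval 23.7 to 76.3%), against 46% of all placed genes. Rps6ka5, a kinase that acts on histones and CREB after stimulation, had 8 peaks over 2.15% of its 191 kb locus. Rps6kb1, the S6 kinase downstream of mTOR, had 1 peak over 1.11%, Rps6ka2 1 over 0.862% and Rps6kc1 2 over 0.752%. Rps19bp1 had 1 flank peak over 9.25%. The kinases Rps6ka1, Rps6ka3, Rps6ka4, Rps6kb2 and Rps6kl1 had none.

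The tissue was checked on markers. Of cortical neuron genes, all 4 that were placed carried a peak, led by Mef2c with 32 and Camk2a with 7. Mef2c is long, at 148 kb, against a median of 18.0 kb over all placed genes. Inhibitory neuron genes carried none at 4 of 4, astrocyte genes 2 of 4 and oligodendrocyte genes 2 of 3. Hepatocyte and striated muscle genes also carried one at 2 of 4 each, and over all placed genes the share was 46%. A peak in the locus alone thus separated tissues poorly.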

How the data were processed

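Per the file headers, the authors called peaks with MACS 2.0.10.20131216 on paired-end fragments of 1 ChIP library against 1 input library, with a q cutoff of 0.05 and 1 duplicate kept. BWA 0.7.12 is named in the submitters' processing notes but Stampy in a header path, so the aligner is open. The deposited pileup signal counts ChIP fragments at the summit, the deposited fold enrichment is the ratio of pileup to the input background, each with 1 added, and the deposited −log10 q values are the caller's.

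The build of the peak list is named nowhere in these sources. Peaks 1 to 2.5 kb from a gene end numbered 2470 as deposited and 1187 to 1371 after shifts of 10 to 200 kb, and MicOch1.0 positions were used on 28 shared sequences, without chromosome 6 below 20 Mb. No table coordinate is printed, and peak coordinates count from 1. No sequence was used.

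Computed here, with Python 3.11.15, pandas 2.3.3 and scipy 1.17.1, were overlaps, percent of bases covered, 95% Wilson intervals over genes and exact Poisson intervals. With 1 library per group no test was made. All counts cover the 57 genes, of which 2 are not reported here one by one. Overlap code was checked against direct counting on simulated and real genes. Named were members with a body peak, the leading 10 per subunit, members without a peak, paralogues and up to 4 genes per other list. Members, lists and settings were chosen with earlier results of these data known; the roles within each subunit, the leading-gene omissions and 1 alternative were added later.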

Additional observations from a re-analysis of the deposited data

How the results depend on the processing

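Each of 8 values was recomputed under 10 settings, 1 of them (leaving out peaks inside another gene) chosen after the data were seen. Of the 80 values 68 stayed within the interval of the reported one. Many of these could not move. Taking chromosome 6 in full or leaving out peaks of high background changed no value. Requiring the peak midpoint or 50% of the peak inside changed only the body shares. With the 50% of peaks of higher q rank, 40.4% of ribosomal protein genes had a peak, the density was 0.331 per 10 kb and the median fold 2.96. With the 25% of highest fold these were 10.5%, 0.0765 per 10 kb and 3.54, with 8.70% of small and 11.8% of large subunit genes and 7.02% with a body peak. Fewer peaks entered both settings, and the choice by fold raises the median fold by construction. Flanks of 10 kb gave 0.362 peaks per 10 kb. The body share of peaks was 74.2% with 2.5 kb flanks and 71.9% without peaks inside another gene, both of which remove flank peaks. The median coverage was 0 with 2.5 kb flanks, with either stronger set and without peaks inside another gene, since fewer members then had a peak. Leaving out Rps13 or Rpl23a, also chosen after the data were seen, lowered body coverage to 11.1% in the small and 3.21% in the large subunit. Small subunit genes stood above large in 9 of 10 settings. These include the midpoint, 50% overlap, full chromosome 6 and high-background settings, which left both shares as reported. No paired analysis was possible because each group has 1 library. With a lowest background of 6.23 fragments, weak enrichment was not detectable at this depth, so a member without a listed peak may still carry the mark.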

Other observations

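Members on the same sequence did not all behave alike, as the chromosomes and linkage groups with 4 or more members show. A peak was found at 4 of 4 members on linkage group 4, where 24.1% of genes with a locus of 10 to 20 kb had one, and at 4 of 5 on chromosome 5, against 22.3%. It was found at 3 of 4 on chromosome 8, against 26.5%, at 3 of 4 on linkage group 1, against 27.3%, and at 2 of 4 on chromosome 2, against 24.3%. On chromosome 7 it was found at 2 of 6, against 27.7%. On chromosomes 1 and 4 and on linkage group 2 it was found at 1 of 4 each, against 27.9%, 31.1% and 22.4%. These counts are small, and no test was made of them.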
